A study of Mus musculus with 12 samples.

Results

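The comparison described here is that of exogenous TGFB1 with vehicle in primary mouse fibroblast cultures labelled as knockout for the TGF-beta type II receptor gene Tgfbr2. It rests on 6 RNA-sequencing libraries, 3 of knockout cultures given TGFB1 and 3 of knockout cultures given vehicle, which pair by a number in their labels and are called replicates 1, 2 and 3 here. Of 25203 genes in the deposited expression table, 12185 had at least 1 FPKM (fragments per kilobase of transcript, scaled to library size) in at least 3 of these 6 libraries and were tested. The filter, which is the rule of choice here, passed Zbtb7c, with a third-highest value of 1.00133 FPKM, and left out Gzmm, at 0.999778 FPKM, and 5236 genes of the table were at 0 in all 6 libraries. The study, on stroma in the transformation of the gut epithelium, gave TGFB1 to primary Pdgfra-lo-H2B-GFP cells and ran Tgfbr2KO cells beside them to look for responses outside the canonical route. The groups are Tgfbr2KO with TGFB1, Tgfbr2KO with vehicle, TGFB1 alone and vehicle alone, all labelled mesenchyme. The other 6 libraries come from receptor-intact cultures, 3 with TGFB1 and 3 with vehicle under the same 3 numbers, and are used here only to set the knockout response beside the intact one. H2B-GFP is a histone fused to a green fluorescent protein, which marks nuclei, here under the Pdgfra name, a gene for a receptor of platelet-derived growth factor. The deleted part of Tgfbr2, the way it was deleted, the dose of TGFB1, the length of treatment and what each number stands for are not given in the sources used here. Whether the 3 libraries of a group stem from different animals is not stated, and p-values therefore reflect variation among these libraries, which may be partly technical.

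TGF-beta ligands bind the type II receptor, which then recruits and phosphorylates the type I receptor TGFBR1, and the active kinase phosphorylates SMAD2 and SMAD3. These join SMAD4 in the nucleus and switch on genes for matrix, the cytoskeleton and feedback inhibitors of the pathway. Branches outside the SMADs run from the same receptors through TAK1 to JNK, p38 and NF-kB, through ERK, through PI3K and AKT, and through YAP. The coreceptor betaglycan (Tgfbr3) binds the ligand at the surface and presents it to the type II receptor. In the gut, fibroblasts of the Pdgfra lineage secrete R-spondins, gremlins and WNT and BMP ligands that set the behaviour of epithelial stem cells.

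Summed values lay between 498669 and 569510 FPKM over all 12 libraries, and absolute depth is unknown because the table gives FPKM without counts. From the step of the lowest values, the TGFB1-treated knockout libraries had 0.804, 1.25 and 0.838 times the depth of the replicate 1 library of receptor-intact vehicle cultures, and the vehicle-treated knockout libraries 0.892, 0.862 and 1.02 times. Tgfbr2 itself had 31.6, 38.03 and 62.4 FPKM in TGFB1-treated knockout libraries and 27.0, 35.2 and 41.9 FPKM in vehicle-treated knockout libraries, in replicate order as in every list of 3 values here. Receptor-intact libraries had 56.5, 70.6 and 74.6 FPKM with TGFB1 and 48.0, 38.2 and 78.8 FPKM with vehicle, so the ranges of knockout and intact libraries overlap. A sum over the whole transcript does not check a deletion whose extent is not stated, and the knockout label is taken as given. Fibroblast markers were high, with 67.3, 83.2 and 195 FPKM of Pdgfra in TGFB1-treated knockout libraries and 48.3, 75.3 and 99.8 FPKM in vehicle-treated ones. A value in parentheses after the values of a gene is its fitted log2 difference, TGFB1 over vehicle in knockout unless intact cultures are named.

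No gene passed an adjusted p of 0.05 in the knockout cultures (0% of 12185; limma with Benjamini-Hochberg adjustment), and the smallest adjusted p was 0.0986, shared by Egr1 and Mir1932. With a pseudocount of 0.1 in place of 1, Egr1, Mir212 and Ifi27l2a passed, each with an adjusted p of 0.0496, although Mir212 met the expression filter through its TGFB1 libraries alone. At an unadjusted limma p under 0.05, 1223 genes (10.0%) were higher and 730 (5.99%) lower with TGFB1. In receptor-intact cultures the same model called 2644 genes (21.7%) up and 2350 (19.3%) down. The interaction, which is the knockout response minus the intact response, passed for 3468 genes (28.5%). The pairs of one genotype are compared by number in this model, and without that replicate block the unadjusted count in knockout is 728 genes, with a smallest adjusted p of 0.377, and the interaction count is 2154. Without the libraries of replicate 1 the unadjusted count is 752, the intact count of calls 2112 and the interaction count 707, and without those of replicate 2 the intact and interaction counts are 2846 and 1452. Rescaling every library to a common sum turns the split of the unadjusted count round, to 683 higher and 1592 lower. The median of all genes is then -0.04 in knockout and -0.11 in intact cultures. Upper-quartile scaling gives 1058 higher and 932 lower, or 53.2% higher against 62.6% in the values as deposited.

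The knockout changes were smaller and less alike between pairs than the intact ones. Over the genes tested, the standard deviation of the log2 change was 0.297, 0.244 and 0.412 in the 3 knockout pairs, against 0.582, 0.582 and 0.630 in the 3 intact pairs. The changes of knockout pairs correlated over genes with r of 0.222, 0.266 and 0.260, against 0.816, 0.780 and 0.749 for intact pairs, as a description across genes that share libraries. The mean knockout change and the mean intact change correlated with r of -0.135 over the same genes, with -0.0622, 0.0289 and -0.197 for knockout pairs 1, 2 and 3 taken singly, so the sign was not the same in every pair, the changes being measured in separate libraries. A fitted change of at least 1 on the log2 scale was seen for 47 genes upward and 50 downward in knockout, against 233 and 518 in intact cultures. The median gene was measured with a standard error of 0.0824, so that its 95% interval reaches 0.196 to either side. All log2 changes here are of FPKM plus 1, which understates the change of genes near 1 FPKM. The median difference over all genes tested was 0.00 in knockout and 0.02 in intact cultures. By direction alone, 2694 genes (22.1%) were higher and 2417 (19.8%) lower with TGFB1 in all 3 knockout pairs. Without any overlap between the knockout groups, 823 of the 12185 genes tested were higher and 652 lower with TGFB1. These counts have to be read beside each gene said below to be without overlap.

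**Figure D1:**
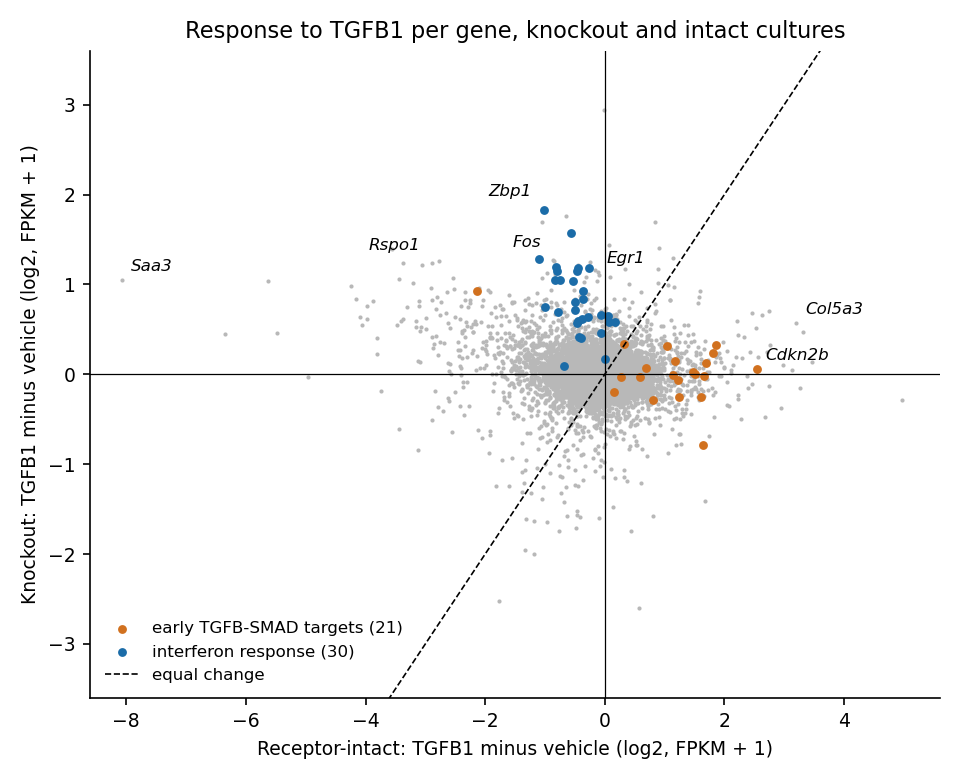
Each grey point is 1 of 12185 genes, with its fitted log2 change with TGFB1 in knockout cultures on the vertical axis and in receptor-intact cultures on the horizontal axis, which cover different ranges. The 21 early TGFB-SMAD targets lie to the right of 0 apart from Tgfbi and have a median height of 0.01, and all 30 interferon response genes lie above 0.

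Differences in the ligands and their receptors were small in knockout. Tgfb1 had 31.5, 31.7 and 30.6 FPKM with TGFB1 and 32.8, 33.1 and 31.9 FPKM with vehicle, where it rose by 0.86 in intact cultures (adjusted p = 0.000109, limma). None of 12 ligand and activation genes tested reached an unadjusted p under 0.05, beside 10.0% of all genes higher and 5.99% lower. Of 11 receptors and coreceptors 1 did, Bmpr1a, a type I receptor for BMPs, with a difference of 0.32. Bmp1, a protease that frees latent ligand, differed by 0.18, Ltbp4, which anchors latent TGF-beta in the matrix, by 0.28, Thbs1, a latent TGF-beta activator, by -0.13, Itgav, an integrin chain that activates it, by -0.14, and Lrrc32, which holds it on the cell surface, by 0.19. Of these, 4 rose and Lrrc32 fell in intact cultures. Gdf15, a distant family member that intact cultures also lowered, had 92.0, 60.2 and 53.2 FPKM with TGFB1 and 98.0, 73.7 and 70.9 FPKM with vehicle, lower in all 3 pairs (-0.26). Tgfbr1 differed by 0.21 (95% interval -0.01 to 0.43) and Acvrl1, the ALK1 type I receptor, by -0.31 (-0.70 to 0.07). The coreceptor endoglin (Eng) differed by -0.15 and the activin receptor Acvr2a by 0.26. Tgfbr3, the betaglycan gene, fell by 2.89 in intact cultures, and in knockout it had 24.2, 30.5 and 50.1 FPKM with TGFB1 and 16.3, 30.6 and 30.4 FPKM with vehicle, a difference of 0.41. The interaction for Tgfbr3 was 3.31 (adjusted p = 0.000475).

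Feedback inhibitors that SMAD2 and SMAD3 switch on rose in intact cultures and had small differences in knockout. Skil, a corepressor that TGF-beta signalling both degrades and transcribes, had 11.7, 12.5 and 11.4 FPKM in TGFB1-treated knockout libraries and 11.8, 11.8 and 12.1 FPKM in vehicle-treated ones. In intact libraries it had 29.8, 29.8 and 27.5 FPKM with TGFB1 and 13.1, 11.8 and 12.7 FPKM with vehicle, where the groups do not overlap. Pmepa1, a membrane protein that sequesters receptor-regulated SMADs, differed by -0.02 in knockout (95% interval -0.19 to 0.15) against 1.65 in intact cultures. Smad7, the inhibitory SMAD, was lower with TGFB1 in all 3 knockout pairs, by -0.29, -0.07 and -0.51 as a log2 difference per pair, and fitted at -0.29 (adjusted p = 0.326), where it rose by 0.80 in intact cultures. The interactions of Skil, Pmepa1 and Smad7 were -1.15, -1.67 and -1.09, with adjusted p of 0.000456, 0.00025 and 0.00606. Of 16 SMADs and SMAD feedback genes, 1 was lower at an unadjusted p under 0.05 (Smad9, a BMP-responsive SMAD, -0.41) and 0 were higher, beside 5.99% and 10.0% of all genes, and the lower count is 4 with libraries rescaled to a common sum and 3 with upper-quartile scaling. Smurf1, a ubiquitin ligase for SMADs and receptors, differed by -0.16 in knockout and rose by 0.74 in intact cultures (interaction adjusted p = 0.00138), and Smad5 differed by 0.09 in knockout.

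Early TGFB-SMAD targets rose in intact cultures and had a median near 0 in knockout. Of 22 genes on that list 21 were tested, of which 20 rose and 1 fell in intact cultures, beside 21.7% and 19.3% of all genes. An interaction was called for 19 of the 21, beside 28.5% of all genes. Their median change was 0.01 in knockout, with 0.03, 0.05 and -0.08 in the 3 pairs, against 1.22 in intact cultures. Cdkn2b, which encodes the cell cycle inhibitor p15, had 27.9, 19.6 and 18.4 FPKM with TGFB1 and 27.4, 17.9 and 18.1 FPKM with vehicle in knockout. In intact libraries it had 111, 85.6 and 98.6 FPKM with TGFB1 and 20.3, 13.6 and 14.8 FPKM with vehicle. Its knockout difference was 0.06 (95% interval -0.09 to 0.20), and the interaction was -2.48 (adjusted p = 5.4e-05).

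Ccn2, a matricellular growth factor shared by the SMAD and YAP routes, had 858, 695 and 300.3 FPKM with TGFB1 and 799, 686 and 555 FPKM with vehicle, where replicate 3 alone was lower. In intact cultures Ccn2 rose by 1.61, and the interaction was -1.87 (adjusted p = 0.00688). In knockout 5 of the 21 targets were higher at an unadjusted p under 0.05 and 1 was lower, beside 10.0% and 5.99% of all genes. Higher early SMAD genes numbered 2 without the replicate block and 3 without replicate 1. The higher ones were Bhlhe40, a transcriptional repressor (0.32), Junb, an AP-1 subunit (0.34), Tgfbi, a matrix adhesion protein (0.92), Nox4, an NADPH oxidase (0.24), and Vegfa, an angiogenic growth factor (0.31), the last 2 named after their values were seen. Uchl1, a ubiquitin hydrolase, is taken here as an enteric glia and neuron marker and is not the lower target counted above. It rose by 1.35 in intact cultures and differed by -0.39 in knockout, without reaching an unadjusted p under 0.05. Junb had 167, 146 and 168 FPKM with TGFB1 and 124, 127 and 129 FPKM with vehicle, with no overlap, and it rose by 0.32 in intact cultures (interaction 0.02, adjusted p = 0.891). Tgfbi was the list's exception in intact cultures, where it fell by 2.14.

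**Figure D2:**
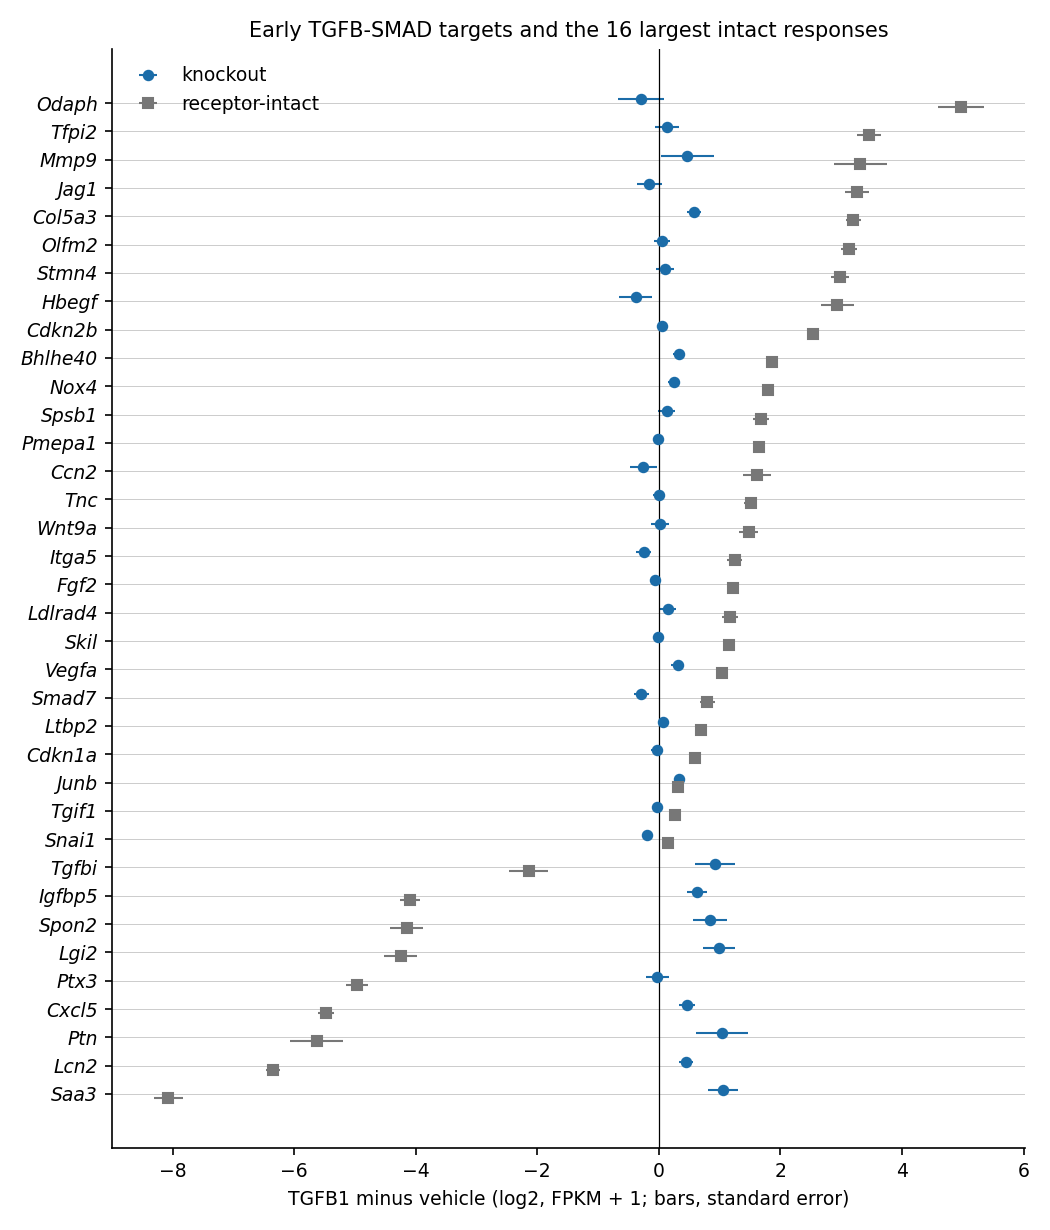
Fitted log2 change with TGFB1 (points, with standard errors as bars) in knockout cultures (circles) and receptor-intact cultures (squares) for 20 of 21 early TGFB-SMAD targets and the 8 largest rises and 8 largest falls of intact cultures. Most knockout circles stay near 0 for genes that rise in intact cultures, and those of the 8 largest falls sit between -0.02 and 1.05.

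Genes with the largest intact rises had knockout differences on both sides of 0. Of 224 genes that rose by at least 1 in intact cultures, with a median of 1.42, the median knockout change was 0.00, with 0.03, 0.09 and -0.14 in the 3 pairs. For 212 of these (94.6%) the interaction passed, beside 28.5% of all genes. For 199 (88.8%) the whole 95% interval of the knockout change lay below 50% of the intact change. Both counts reuse the intact libraries that chose these genes, so they describe the set and are not a test of it. Odaph, the largest intact rise at 4.97, had 3.25, 7.59 and 0.312 FPKM with TGFB1 and 5.29, 3.48 and 2.09 FPKM with vehicle in knockout, in no common direction. Jag1, a Notch ligand, rose by 3.26 in intact cultures and differed by -0.16 in knockout (95% interval -0.64 to 0.33). Hbegf, an EGF receptor ligand, rose by 2.94 in intact cultures and differed by -0.38 in knockout. Mmp9, a gelatinase, Tfpi2, a protease inhibitor, Olfm2 and Stmn4 rose by 3.32, 3.46, 3.13 and 2.98 in intact cultures and differed by 0.47, 0.14, 0.05 and 0.10 in knockout, in that order. Col5a3, a minor fibrillar collagen chain, was the 1 of the 8 largest intact rises that was also higher in knockout at an unadjusted p under 0.05, with 6.52, 11.5 and 14.1 FPKM with TGFB1 against 4.71, 7.56 and 7.75 FPKM with vehicle, a difference of 0.58 beside a rise of 3.20 in intact cultures.

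Genes that fell most in intact cultures were more often higher than lower with TGFB1 in knockout. Of 480 genes that fell by at least 1 in intact cultures, 357 were higher in knockout, with a median of 0.21 and of 0.18, 0.05 and 0.42 in the 3 pairs. Among the 120 that fell by at least 2, the median knockout change was 0.49, with 0.41, 0.14 and 0.86 in the pairs, 99 were higher (82.5%, beside 49.8% of all genes), and 58 (48.3%) were higher at an unadjusted p under 0.05 while 3 were lower, beside 10.0% and 5.99% of all genes. These sets were chosen in the intact libraries, which share none with the knockout contrast. The interaction does use the intact libraries, so its p for a gene chosen by its intact change is no separate test. Over all 2350 genes that fell in intact cultures the median was 0.03, and it is -0.03 when every library is rescaled to a common sum. Saa3, an acute phase serum amyloid, had 1659, 2614 and 7319 FPKM in TGFB1-treated knockout libraries and 704, 1850.3 and 2717 FPKM in vehicle-treated ones. In intact libraries it had 11.9, 6.15 and 8.82 FPKM with TGFB1 and 2309.6, 2869.7 and 2628 FPKM with vehicle, so it nearly vanished with TGFB1 in intact cultures and was higher in every knockout pair. The fitted changes were 1.05 in knockout (adjusted p = 0.219) and -8.07 in intact cultures, with an interaction of 9.12 (adjusted p = 7.57e-05). Lcn2, the siderophore-binding lipocalin, had 267, 268 and 369 FPKM with TGFB1 and 180.2, 226 and 257 FPKM with vehicle in knockout, with no overlap, and Cxcl5, a neutrophil chemokine, had 872, 936 and 1174 FPKM with TGFB1 and 713, 765 and 675 FPKM with vehicle. Ptn, the growth factor pleiotrophin, had 16.1, 49.4 and 437 FPKM with TGFB1 and 8.30, 38.9 and 116 FPKM with vehicle, higher in every pair while the 3 numbers span a wide range of levels. Of the 8 largest intact falls, only Ptx3, a soluble pattern recognition protein, showed no upward change (-0.02), and the others lay between 0.44 and 1.05, with Igfbp5, an IGF-binding protein, at 0.63, Lgi2 at 0.99 and Spon2, a secreted matrix protein, at 0.83.

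Immediate early genes, which serum response factor and ERK switch on within minutes of a stimulus, held the gene with the smallest p of the knockout comparison. Egr1, a zinc finger transcription factor, had 68.3, 76.9 and 99.7 FPKM in TGFB1-treated knockout libraries and 30.3, 41.4 and 37.0 FPKM in vehicle-treated ones. Every TGFB1 library lay above every vehicle library, the pairs differed by 1.15, 0.88 and 1.41 on the log2 scale, and the fitted change was 1.14 (95% interval 0.92 to 1.37, adjusted p = 0.0986). In intact cultures Egr1 differed by -0.12 (adjusted p = 0.346), and the interaction was 1.27 (adjusted p = 0.00138). When the test was limited to protein-coding genes, an alternative chosen after the data were seen, Egr1 was the 1 gene called, with an adjusted p of 0.0426. Fos, the AP-1 subunit, had 12.6, 12.7 and 22.5 FPKM with TGFB1 and 4.83, 6.58 and 6.09 FPKM with vehicle, again without overlap, a difference of 1.27 (95% interval 0.83 to 1.71, adjusted p = 0.164). In intact cultures Fos fell by 0.86, and the interaction was 2.13 (adjusted p = 0.00231). Ier2, a nuclear protein of the same rapid class, had 75.6, 68.9 and 85.8 FPKM with TGFB1 and 47.7, 52.5 and 51.8 FPKM with vehicle, a difference of 0.59 (adjusted p = 0.164).

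Other genes of this class and of the stress kinase route differed in both directions. Egr2 had 3.63, 5.07 and 3.41 FPKM with TGFB1 and 2.06, 3.01 and 1.54 FPKM with vehicle, a difference of 0.66 where it rose by 2.64 in intact cultures. Zfp36, which encodes the mRNA-destabilising protein tristetraprolin, had 56.0, 51.2 and 52.4 FPKM with TGFB1 and 45.4, 43.5 and 35.4 FPKM with vehicle, and Gadd45a, a stress-induced growth arrest gene, had 34.6, 35.2 and 43.5 FPKM with TGFB1 and 30.6, 27.4 and 29.3 FPKM with vehicle. Both were without overlap, with a log2 difference of 0.36 each. Ptgs2, cyclooxygenase 2, differed by -0.34, with replicate 3 the lowest with TGFB1. Spry4, an ERK feedback inhibitor, had 9.00, 7.87 and 8.16 FPKM with TGFB1 and 11.2, 9.88 and 9.80 FPKM with vehicle, lower in all 3 pairs without overlap (-0.27). Dusp6, the ERK phosphatase, differed by -0.26 (95% interval -0.62 to 0.10), where it rose by 0.99 in intact cultures (interaction adjusted p = 0.00726). Etv1, an ETS factor, differed by 0.24, where it fell by 1.43 in intact cultures. Over the whole ERK list of 23 genes tested, 5 were higher and 3 lower at an unadjusted p under 0.05, beside 10.0% and 5.99% of all genes, and the median was 0.00. Its lower count is 1 without replicate 1, 1 without replicate 2 and 6 without replicate 3. Of 20 JNK, p38 and stress kinase targets, 5 were higher and 0 lower, beside 10.0% and 5.99% of all genes, with a median of -0.01. The count of higher stress kinase genes was 3 without the replicate block. Klf10, the TGF-beta inducible early gene, was lower, with 5.72, 5.33 and 5.36 FPKM with TGFB1 and 8.74, 6.80 and 8.78 FPKM with vehicle, a difference of -0.49 (adjusted p = 0.219) where it rose by 0.26 in intact cultures. The interaction of Klf10 was -0.74 (adjusted p = 0.00581).

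**Figure D3:**
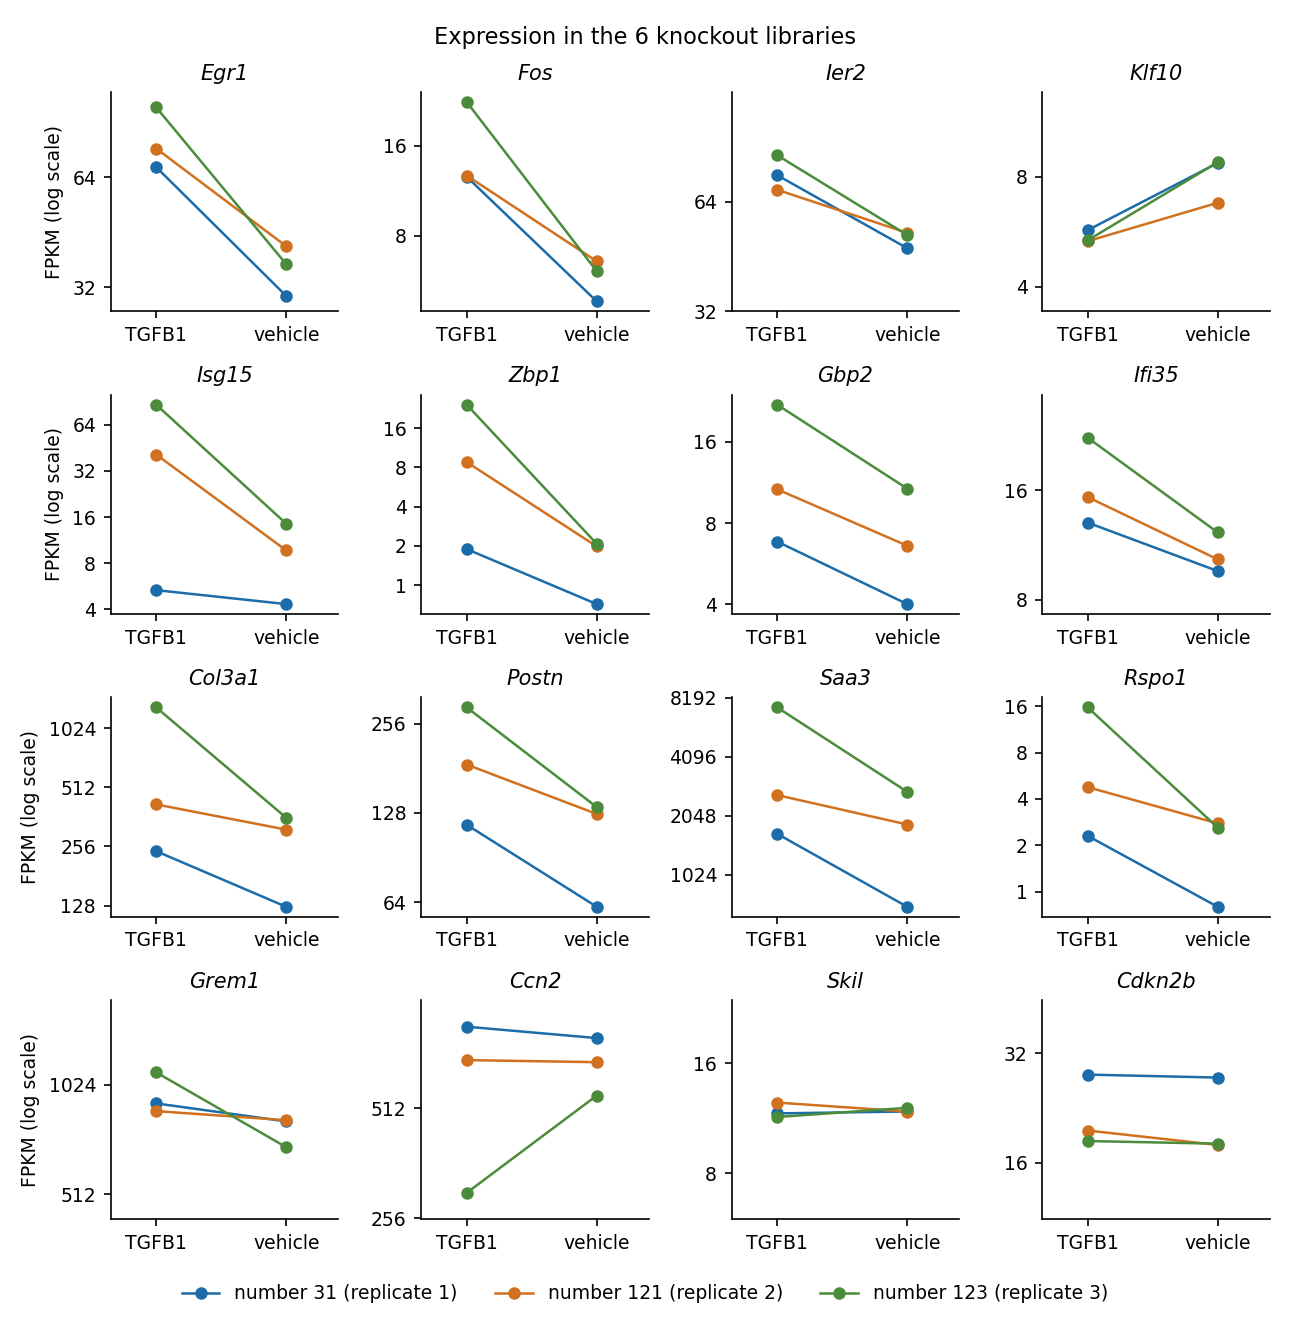
FPKM on a log scale, with its own range for each of 16 genes, in the knockout libraries given TGFB1 (left of each panel) and vehicle (right), with a line for each pair. The lines of Egr1, Fos and Ier2 slope the same way, those of Isg15, Zbp1, Col3a1 and Rspo1 are steepest in replicate 3, and those of Skil and Cdkn2b are flat.

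Of the lists with at least 8 members tested, the interferon response had the largest median difference. It holds genes that are switched on after interferon reaches its receptor. Of 40 genes on that list 30 passed the expression filter, and 27 of these were higher with TGFB1 in all 3 knockout pairs, beside 22.1% of all genes, and 0 were lower in all 3. At an unadjusted p under 0.05, 28 were higher, beside 10.0% of all genes, and none passed the adjusted test. Their median change was 0.73, and it differed between pairs, with 0.25, 0.72 and 1.32 for replicates 1, 2 and 3. In intact cultures the median was -0.46, with 0 genes that rose and 7 that fell, beside 21.7% and 19.3% of all genes. The interaction was called for 19 of the 30, beside 28.5% of all genes. In pair 1, 3 members were lower with TGFB1, Stat2, Oas1a and Rtp4, named after their values were seen. The 10 members below the filter, such as Mx2 at 0.123, 1.09 and 2.17 FPKM with TGFB1 and 0.0890, 0.137 and 0.444 FPKM with vehicle, were left out of these counts. Members that pass the filter through their high libraries had to differ, so these counts describe the list and are not a test of it. Without replicate 3 the count at an unadjusted p under 0.05 is 13, without replicate 2 it is 16, without replicate 1 it is 28, without the replicate block it is 5, and with a filter of 5 FPKM, which leaves fewer members, it is 12.

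Sequences before the start sites of 5 members, of which Ifit1 and Bst2 were chosen after their values were seen, are shown because they carry the interferon-stimulated response element (ISRE), the letters GAAANNGAAA searched on both strands in the 250 bases before the start, where overlapping matches are merged. That motif was in the RefSeq promoters (GRCm38.p6) of 11 of the 23 members with an entry (47.8%), beside 3.01% of the genes tested with an entry and 3.46% of the whole table. The list was made of genes that interferon switches on, so this share describes the list and is no measure of the response to TGFB1. Each line gives the last 160 bases before the start, 5′ to 3′ on the gene's strand, with the matched bases in capitals.

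Isg15, chr4:156200819-156200978, minus strand, encodes a ubiquitin-like modifier. Ifit1, chr19:34640729-34640888, and Ifit3, chr19:34583369-34583528, both on the plus strand, encode RNA-binding tetratricopeptide proteins. Gbp2, chr3:142620503-142620662, plus strand, encodes a guanylate-binding GTPase, and Bst2, chr8:71537473-71537632, minus strand, encodes tetherin, which holds budding virus at the membrane.

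Isg15: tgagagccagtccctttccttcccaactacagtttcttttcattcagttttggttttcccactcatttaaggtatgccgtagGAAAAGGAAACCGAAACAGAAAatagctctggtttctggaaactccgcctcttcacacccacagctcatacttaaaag
Ifit1: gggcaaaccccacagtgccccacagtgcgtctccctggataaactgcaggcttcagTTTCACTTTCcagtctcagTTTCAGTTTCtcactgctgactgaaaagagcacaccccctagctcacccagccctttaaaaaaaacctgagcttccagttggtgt
Ifit3: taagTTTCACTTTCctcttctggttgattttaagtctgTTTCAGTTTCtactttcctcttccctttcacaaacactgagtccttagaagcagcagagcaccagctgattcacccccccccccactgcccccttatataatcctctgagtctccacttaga
Gbp2: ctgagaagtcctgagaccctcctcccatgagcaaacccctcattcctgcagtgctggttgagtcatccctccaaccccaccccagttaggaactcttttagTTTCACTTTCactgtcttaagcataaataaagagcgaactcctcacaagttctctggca
Bst2: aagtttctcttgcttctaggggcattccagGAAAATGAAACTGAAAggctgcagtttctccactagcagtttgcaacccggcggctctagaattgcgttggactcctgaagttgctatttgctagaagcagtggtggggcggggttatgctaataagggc

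Isg15 had 5.34, 40.9 and 86.4 FPKM in TGFB1-treated knockout libraries and 4.33, 9.69 and 14.5 FPKM in vehicle-treated ones. Its pair differences were 0.25, 1.97 and 2.498, so the replicate 1 pair was low and close together and the groups overlap. The fitted difference was 1.57 with a standard error of 0.44 (adjusted p = 0.234). In intact libraries Isg15 had 5.05, 5.39 and 7.39 FPKM with TGFB1 and 12.3, 4.41 and 13.5 FPKM with vehicle, and the interaction was 2.13 (adjusted p = 0.042). Zbp1, a sensor of left-handed nucleic acid, had 1.89, 8.77 and 24.2 FPKM with TGFB1 and 0.716, 1.98 and 2.07 FPKM with vehicle in knockout, a difference of 1.83 with a standard error of 0.38 (adjusted p = 0.219). Its intact libraries had 0.522, 0.342 and 1.32 FPKM with TGFB1 and 2.60, 1.197 and 4.00 FPKM with vehicle (interaction 2.85, adjusted p = 0.00978). Both genes showed the same order of pairs, with the difference smallest in replicate 1 and largest in replicate 3. Ifit3 had 1.59, 7.12 and 13.0 FPKM with TGFB1 and 1.44, 1.54 and 2.96 FPKM with vehicle, and Ifit1 had 1.16, 5.57 and 11.9 FPKM with TGFB1 and 0.993, 1.61 and 2.92 FPKM with vehicle. The other members spread over the same pairs, and Irf7, the interferon regulatory factor that amplifies the response, and Usp18, which removes ISG15 from proteins, were at 0.44, 1.22 and 1.89 and at 0.33, 1.15 and 1.96 as pair differences, named after their values were seen. Ifit2 and Irf1 differed least of the 30, by 0.09 and 0.17. Iigp1, an interferon-inducible GTPase, had 0.739, 3.29 and 10.3 FPKM with TGFB1 and 0.367, 1.06 and 1.09 FPKM with vehicle, and its interaction was 2.38 (adjusted p = 0.0152).

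Gbp2, Ifi35 and Psmb10 differed more evenly over the pairs than Isg15 and Zbp1 did, though most in replicate 3. Gbp2 had 6.84, 10.7 and 22.0 FPKM with TGFB1 and 4.01, 6.60 and 10.7 FPKM with vehicle, with pair differences of 0.64, 0.62 and 0.97, a difference of 0.74 (95% interval 0.55 to 0.94, adjusted p = 0.156). In intact cultures Gbp2 fell by 0.99 (adjusted p = 0.000233), and the interaction was 1.74 (adjusted p = 0.000312). Ifi35, an interferon-induced leucine zipper protein, had 13.0, 15.3 and 22.3 FPKM with TGFB1 and 9.59, 10.3 and 12.2 FPKM with vehicle, without overlap (0.58, adjusted p = 0.164). Psmb10, an immunoproteasome subunit, had 17.0, 21.2 and 24.0 FPKM with TGFB1 and 13.1, 14.6 and 15.4 FPKM with vehicle, without overlap (0.49, adjusted p = 0.164). Of the 12 MHC class I and antigen processing genes, 5 were higher at an unadjusted p under 0.05 and 0 lower, beside 10.0% and 5.99% of all genes, with Psmb8 at 0.59, Tap1, the peptide transporter, at 0.41 and H2-T23, a non-classical class I chain, at 0.59. Psmb8 and Tap1 are also on the interferon response list, so the 2 lists are not separate. Higher antigen processing genes numbered 1 without the replicate block, 3 without replicate 3 and 3 with libraries rescaled to a common sum. The median of that list was 0.30, with 0.09, 0.20 and 0.60 in the 3 pairs.

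Of 20 listed interferon, receptor and sensor genes, 18 were in the expression table. The interferon genes among these were at or near 0, and interferon genes off the list were not examined. Ifna4, Ifnl3 and Ifng were listed at 0 in all 6 knockout libraries, and Ifnb1 was listed at 0 in 5 of them and at 0.0663 FPKM in the TGFB1-treated library of replicate 2. Of 14 interferon receptors, kinases and nucleic acid sensors tested, 1 was higher and 0 lower at an unadjusted p under 0.05, beside 10.0% and 5.99% of all genes. The higher one was Ifnar2, a chain of the type I interferon receptor, with 44.9, 50.1 and 63.6 FPKM with TGFB1 and 38.02, 45.0 and 49.0 FPKM with vehicle (0.25). The median of that list was 0.05, and Jak1, the receptor kinase, Tlr3, the double-stranded RNA sensor, and Ifngr2, a chain of the interferon gamma receptor, differed by 0.04, 0.20 and 0.13. Over the same pairs the summed level of 16 macrophage and leukocyte markers was lower with TGFB1, at 315, 436 and 230.0 FPKM against 373, 536 and 359 FPKM with vehicle, and its part in the interferon genes was not tested. In bulk cultures fewer cells of a type and less RNA per cell cannot be told apart.

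**Figure D4:**
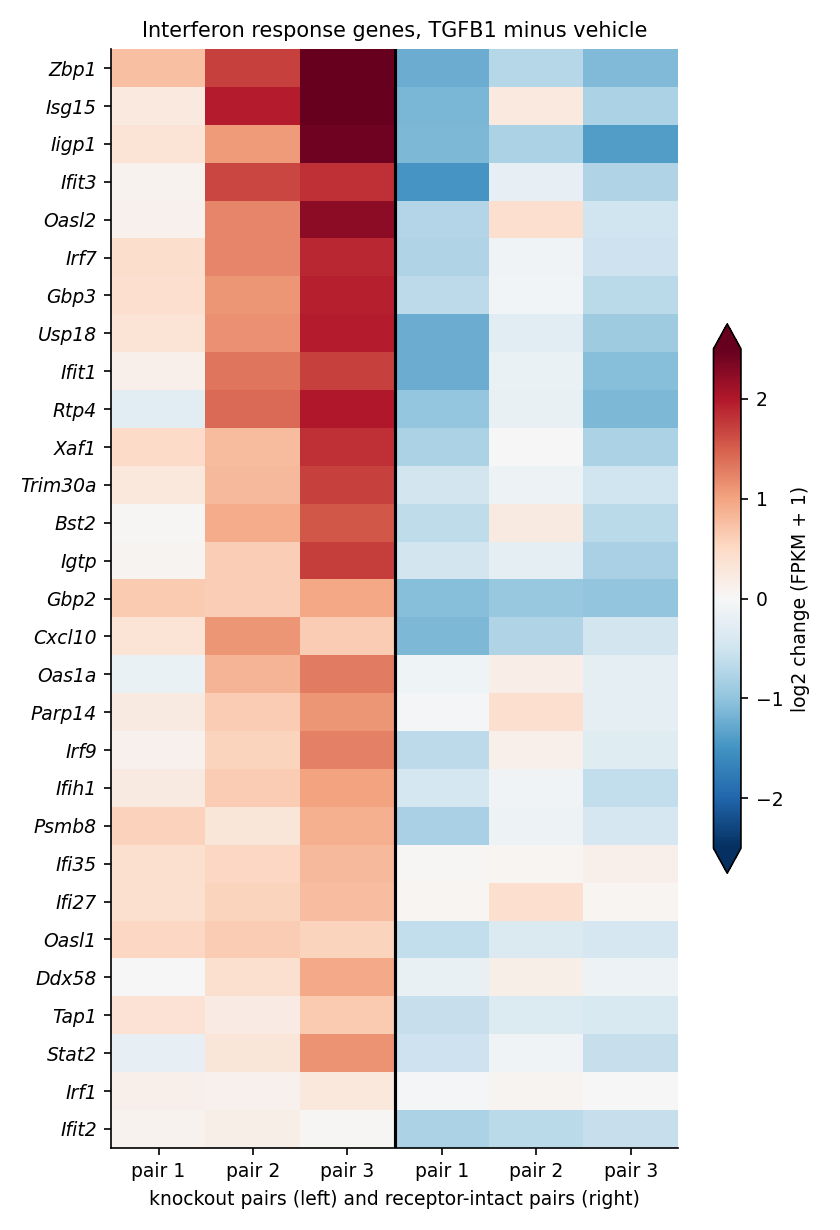
Colour gives the log2 change with TGFB1 within each pair for 29 of 30 interferon response genes, sorted by their fitted knockout change, with knockout pairs left and receptor-intact pairs right. The knockout columns deepen in the order of replicates 1, 2 and 3, up to a change of 3.03 for Zbp1, where the colour scale is saturated, and the intact columns have a median of -0.46 over the fitted changes.

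Fibrillar collagens and matrix genes were higher with TGFB1 across most of their list. Of 27 genes 26 were tested, 23 were higher in all 3 pairs and 0 lower, and 19 were higher at an unadjusted p under 0.05, beside 10.0% of all genes. The median change was 0.38, with 0.39, 0.16 and 0.60 in the pairs, against 0.56 in intact cultures, where 16 rose and 6 fell, beside 21.7% and 19.3% of all genes. Without the replicate block the count at an unadjusted p under 0.05 is 2, without replicate 1 the count is 5, and with libraries rescaled to a common sum it is 14. Col3a1, the type III collagen chain, had 242, 419 and 1304 FPKM with TGFB1 and 126, 312 and 358 FPKM with vehicle, where replicate 3 with TGFB1 stands far above the other 5 libraries. Its difference was 1.07 (95% interval 0.33 to 1.82, adjusted p = 0.24), where it fell by 1.05 in intact cultures (interaction adjusted p = 0.0141). Col1a1 had 1166, 1469 and 2478 FPKM with TGFB1 and 845, 1395 and 1329 FPKM with vehicle, a difference of 0.48 where it differed by 0.54 in intact cultures (interaction -0.06, adjusted p = 0.878). Col1a2 had 565, 861 and 1827 FPKM with TGFB1 and 326, 705 and 735 FPKM with vehicle, and Postn, the matricellular protein periostin, had 117, 186 and 290.3 FPKM with TGFB1 and 61.8, 127 and 134 FPKM with vehicle. Postn was higher by 0.86 in knockout and rose by 1.58 in intact cultures, with an interaction of -0.72 (adjusted p = 0.0827).

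Small proteoglycans, which bind collagen fibrils, were also highest in replicate 3 with TGFB1. Dcn, decorin, had 283, 393 and 798 FPKM with TGFB1 and 157, 285 and 326 FPKM with vehicle, and Lum, lumican, had 3.49, 9.29 and 36.7 FPKM with TGFB1 and 2.23, 6.67 and 11.5 FPKM with vehicle. Lum fell by 2.04 in intact cultures and was higher by 0.83 in knockout (interaction 2.87, adjusted p = 0.00501). Fn1, fibronectin, which rose by 1.53 in intact cultures, had 855, 1002 and 1419 FPKM with TGFB1 and 793, 986 and 1003 FPKM with vehicle in knockout, a difference of 0.21 (95% interval -0.07 to 0.49, interaction adjusted p = 0.00254). Eln, elastin, did not pass the expression filter, and was listed at 0.693, 4.69 and 6.93 FPKM with TGFB1 and 0.160, 0.647 and 0.941 FPKM with vehicle. The fibroblast marker list, 5 of whose members are also on the matrix list, had 8 of 10 tested members higher and 1 lower at an unadjusted p under 0.05, beside 10.0% and 5.99% of all genes, and a median of 0.50, with 0 higher without the replicate block, 1 without replicate 1, 4 without replicate 3, 4 with libraries rescaled to a common sum and 5 with upper-quartile scaling. Pdgfra differed by 0.52 in knockout (95% interval 0.01 to 1.04), where it fell by 3.16 in intact cultures (interaction adjusted p = 0.000595).

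Contractile genes and targets of the YAP route had medians a little below 0, and their counts moved with the libraries and the scaling used. Acta2, smooth muscle actin, had 2148, 1861 and 1396 FPKM with TGFB1 and 1803, 1742 and 1788 FPKM with vehicle, a difference of 0.00 (95% interval -0.27 to 0.26). Tagln, the actin-binding protein SM22, differed by -0.07 in knockout and rose by 0.82 in intact cultures (interaction adjusted p = 0.01). Smtn, smoothelin, Flna, filamin A, and Srf, the serum response factor itself, differed by -0.12, -0.05 and -0.18, each with replicate 3 the lowest with TGFB1. Of 19 contractile and serum response factor targets, 0 were higher and 0 lower at an unadjusted p under 0.05, beside 10.0% and 5.99% of all genes, and the median was -0.05, with 0.11, 0.08 and -0.28 in the pairs. Without replicate 3, 8 contractile genes are higher and 1 is lower, and with libraries rescaled to a common sum 0 are higher and 3 lower. Of 18 YAP-TEAD targets, 1 was higher and 2 were lower at an unadjusted p under 0.05, beside 10.0% and 5.99% of all genes, and 10 were lower in all 3 pairs, beside 19.8%, with a median of -0.13. The number of lower YAP-TEAD targets is 9 with libraries rescaled to a common sum, 5 with upper-quartile scaling, and 0 without the replicate block or without replicate 1. Ankrd1, a YAP-responsive muscle ankyrin protein, had 232, 162 and 41.9 FPKM with TGFB1 and 257, 162 and 136 FPKM with vehicle, with the difference in replicate 3 (-0.61, 95% interval -1.48 to 0.26). Nuak2, a kinase, and Wwc1, the KIBRA scaffold, differed by -0.39 and -0.33. Fjx1, a secreted four-jointed homologue, was the 1 higher gene, with 7.31, 6.60 and 7.94 FPKM with TGFB1 and 4.74, 5.72 and 5.82 FPKM with vehicle (0.37), and it rose by 1.497 in intact cultures.

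Among niche factors for the epithelium, R-spondins and Grem1 were higher with TGFB1. Of 13 niche genes tested, 6 were higher and 1 was lower at an unadjusted p under 0.05, beside 10.0% and 5.99% of all genes, with a median of 0.22 against -1.99 in intact cultures. All 13 had a called interaction, beside 28.5% of all genes. The count of higher niche genes was 2 without the replicate block, 2 without replicate 1, 2 with libraries rescaled to a common sum and 3 with upper-quartile scaling. Rspo1, an R-spondin that amplifies WNT signalling, had 2.30, 4.78 and 15.7 FPKM with TGFB1 and 0.798, 2.77 and 2.61 FPKM with vehicle, a difference of 1.24 (adjusted p = 0.219) where it fell by 2.88 in intact cultures (interaction 4.12, adjusted p = 0.00111). Rspo3 had 6.81, 8.57 and 19.3 FPKM with TGFB1 and 4.10, 7.52 and 9.66 FPKM with vehicle (0.57). Both R-spondins were higher in all 3 pairs, while the groups overlap across numbers. Grem1, the BMP antagonist gremlin, had 910.3, 867 and 1108 FPKM with TGFB1 and 812, 819 and 690.3 FPKM with vehicle, without overlap (0.31), where it fell by 1.41 in intact cultures (interaction adjusted p = 0.00137). Sfrp1, a secreted WNT antagonist, had 10.6, 16.8 and 70.9 FPKM with TGFB1 and 5.69, 13.1 and 16.1 FPKM with vehicle (1.06). Of 13 BMP-SMAD targets 0 were higher and 2 lower, beside 10.0% and 5.99% of all genes, with 0 lower without replicate 1. Id1, an inhibitor of differentiation that BMPs induce, differed by -0.21 (95% interval -0.49 to 0.07) where it fell by 1.602 in intact cultures. Nog, the BMP antagonist noggin, had 0.545, 0.391 and 0.278 FPKM with TGFB1 and 1.34, 1.07 and 1.21 FPKM with vehicle (-0.65), and since it met the expression filter through its vehicle libraries alone, the groups could not overlap. Id2 differed by 0.31, where Id2 fell by 2.34 in intact cultures. Bmp4 differed by 0.33 (95% interval -0.13 to 0.80) in knockout and fell by 2.86 in intact cultures.

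Inflammatory genes of the NF-kB route were mixed. Of 26 tested, 7 were higher and 1 was lower at an unadjusted p under 0.05, beside 10.0% and 5.99% of all genes, with a median of 0.10 against -0.44 in intact cultures. The count of higher NF-kB genes was 2 without the replicate block and 4 without replicate 2. Il33, an alarmin, had 3.73, 7.78 and 19.0 FPKM with TGFB1 and 2.18, 4.41 and 4.18 FPKM with vehicle (1.07), and C3, the central complement component, had 41.5, 46.2 and 90.7 FPKM with TGFB1 and 31.8, 43.0 and 45.3 FPKM with vehicle (0.49). Il6 had 117, 149.99 and 136 FPKM with TGFB1 and 84.3, 115 and 92.5 FPKM with vehicle, without overlap (0.47, 95% interval 0.06 to 0.87), where it fell by 2.20 in intact cultures (interaction adjusted p = 0.000819). Csf1, the macrophage growth factor, had 342, 244 and 114 FPKM with TGFB1 and 420.3, 304 and 243 FPKM with vehicle, lower in all 3 pairs (-0.56), where it rose by 0.93 in intact cultures. Of 20 PI3K, AKT, FOXO and mTOR genes, 5 were higher and 0 lower, beside 10.0% and 5.99% of all genes, with Klf2, a Kruppel-like factor, at 0.27, Sesn3, a FOXO target sestrin, at 0.47, Ccng2, cyclin G2, at 0.26 and Klf15 at 0.53. Higher PI3K genes numbered 1 without the replicate block, 0 without replicate 1, 9 without replicate 2, 1 without replicate 3, 2 with libraries rescaled to a common sum and 3 with upper-quartile scaling.

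Metabolic lists showed small shifts. Of 23 glycolysis and hypoxia genes, 11 were higher at an unadjusted p under 0.05 and 0 lower, beside 10.0% and 5.99% of all genes, with a median of 0.18 and of 0.20, 0.12 and 0.17 in the pairs. Higher glycolysis genes numbered 1 without the replicate block, 3 without replicate 1, 3 without replicate 3 and 7 with libraries rescaled to a common sum. Ankrd37, a hypoxia target, and Pfkfb3, which drives glycolysis, were both higher by 0.39. Bnip3, a mitophagy receptor induced by hypoxia, had 43.3, 71.0 and 134 FPKM with TGFB1 and 21.8, 51.4 and 78.2 FPKM with vehicle (0.73), and Pdk1, which holds pyruvate out of mitochondria, had 4.23, 7.39 and 18.01 FPKM with TGFB1 and 1.83, 6.52 and 9.47 FPKM with vehicle (0.64). Of 22 ATF4, serine and proline genes, 8 were higher and 1 was lower, beside the same 10.0% and 5.99%, with Nupr1, a stress-induced nuclear protein, at 129, 121.2 and 139 FPKM with TGFB1 and 92.1, 98.1 and 109 FPKM with vehicle, without overlap (0.38, adjusted p = 0.202). In intact cultures Nupr1 rose by 0.86 (interaction -0.48, adjusted p = 0.00986). Pycr1, of proline synthesis, Aldh1l2, of mitochondrial folate metabolism, and Vldlr, a lipoprotein receptor, were higher by 0.38, 0.33 and 0.43 in knockout. Higher ATF4 genes numbered 3 without the replicate block, 2 without replicate 1 and 4 with libraries rescaled to a common sum. Of 24 cholesterol synthesis genes 5 were higher and 0 lower, beside 10.0% and 5.99%, with a median of 0.06, where 15 fell in intact cultures, beside 19.3% of all genes. The count of higher cholesterol genes was 0 without the replicate block, 1 without replicate 1, 2 without replicate 2, 1 without replicate 3, 1 with libraries rescaled to a common sum and 3 with upper-quartile scaling. Hmgcs1, Idi1 and Insig1, all under sterol control, were higher by 0.21, 0.19 and 0.22 in knockout and fell in intact cultures, with adjusted p of the interaction of 0.00665, 0.000431 and 0.0039. Fabp4, a fatty acid carrier of adipocytes, had 14.3, 16.2 and 28.6 FPKM with TGFB1 and 11.1, 12.6 and 16.3 FPKM with vehicle (0.49), where it fell by 2.39 in intact cultures (interaction adjusted p = 0.00018). Of 13 adipogenic and lipid storage genes 1 was higher and 1 lower, beside 10.0% and 5.99%, and Lpl, lipoprotein lipase, and Plin2, a lipid droplet coat protein, differed by 0.36 and -0.27. Of 30 cell cycle genes 0 were higher and 1 was lower, beside 10.0% and 5.99%, which was Ccnd1, cyclin D1, with 101, 68.2 and 59.8 FPKM with TGFB1 and 119, 80.3 and 98.3 FPKM with vehicle (-0.39). In intact cultures 26 of the 30 fell, beside 19.3% of all genes. Without replicate 3, 4 cell cycle genes are higher and 2 lower, the lower count is 7 with libraries rescaled to a common sum and 4 with upper-quartile scaling, and 0 are lower without the replicate block or without replicate 2. Ccne1, cyclin E1, Mcm2, a replication helicase subunit, and Rrm2, a ribonucleotide reductase subunit, differed by -0.28, -0.27 and -0.35, each with replicate 3 the lowest with TGFB1. Mki67, a proliferation marker, differed by -0.12 (95% interval -0.32 to 0.07) in knockout and fell by 0.76 in intact cultures (interaction adjusted p = 0.00899).

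**Figure D5:**
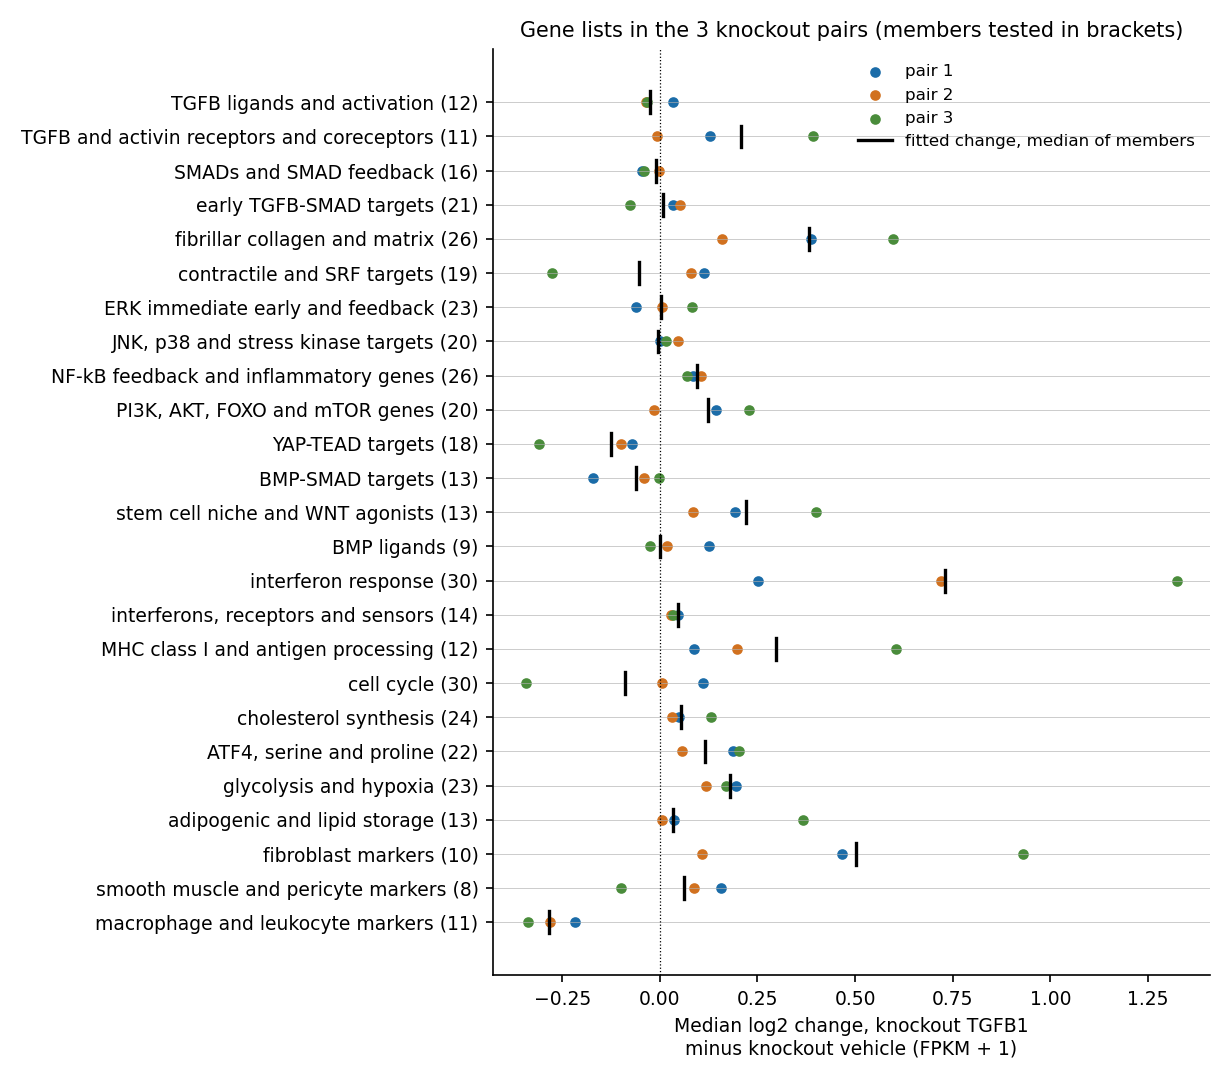
Median log2 change over the tested members of each list with at least 8 of them, for knockout pairs 1, 2 and 3 (points) and for the fitted change (bar). Interferon response, fibroblast marker and matrix lists lie right of 0 in all 3 pairs with replicate 3 farthest, the YAP-TEAD and macrophage lists lie left of 0 in all 3, and the early TGFB-SMAD targets have pair medians of 0.03, 0.05 and -0.08.

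Markers of other cell types differed between numbers more than between treatments. Of 11 macrophage and leukocyte markers tested, 9 were lower with TGFB1 in all 3 pairs, beside 19.8% of all genes, and 3 were lower at an unadjusted p under 0.05, beside 5.99%, with a median of -0.28. That count is 0 without the replicate block, 0 with a block shared over both genotypes and 6 in a fit of the 6 knockout libraries alone. Lyz2, lysozyme, had 87.0, 226 and 156 FPKM with TGFB1 and 107, 304 and 241 FPKM with vehicle (-0.45), and C1qc, a complement C1q chain, had 5.28, 13.7 and 9.82 FPKM with TGFB1 and 6.65, 18.04 and 14.8 FPKM with vehicle (-0.40). Laptm5, a lysosomal protein of blood cells, had 2.72, 9.43 and 6.39 FPKM with TGFB1 and 4.72, 13.3 and 8.25 FPKM with vehicle (-0.47, adjusted p = 0.18). C1qa and C1qb differed by -0.30 and -0.37. The summed levels given with the interferon genes were lower with TGFB1 in each pair. The keratin gene Krt8, chosen after its values were seen, was listed at 7.80, 0 and 0 FPKM with TGFB1 and 25.8, 0 and 0.0542 FPKM with vehicle, so it was above 1 FPKM in the replicate 1 libraries alone. The part of epithelial or mesothelial RNA in the results of that pair was not tested. The 12 epithelial markers summed to 29.8, 8.43 and 7.35 FPKM with TGFB1 and 66.4, 8.89 and 11.7 FPKM with vehicle, and the 10 endothelial markers to 7.08, 17.0 and 17.4 and 5.09, 19.7 and 14.97 FPKM. Krt19, another keratin, had 9.08, 6.93 and 5.56 FPKM with TGFB1 and 13.9, 6.94 and 9.30 FPKM with vehicle (-0.40), and Des, desmin, of muscle, had 1.10, 1.81 and 2.32 FPKM with TGFB1 and 0.584, 1.45 and 2.20 FPKM with vehicle (0.22). None of 8 smooth muscle and pericyte markers or 5 endothelial markers tested reached an unadjusted p under 0.05, beside 10.0% of all genes higher and 5.99% lower.

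Other genes with the smallest p, among those of 5 FPKM or more in either group that had 1 direction in all 3 pairs, mostly belong to no list. Nrep, a neuronal regeneration protein that fibroblasts also make, had 37.9, 49.8 and 135 FPKM with TGFB1 and 20.2, 28.2 and 54.7 FPKM with vehicle, a difference of 0.99 (adjusted p = 0.156), where it rose by 1.05 in intact cultures (interaction -0.06, adjusted p = 0.797). Septin4, a cytoskeletal GTPase, had 24.7, 31.2 and 37.8 FPKM with TGFB1 and 15.8, 24.1 and 23.7 FPKM with vehicle, without overlap (0.54), where it fell by 2.31 in intact cultures (interaction adjusted p = 5.4e-05). Tcim, Bmyc and Tmem53 were higher by 0.45, 0.40 and 0.47, each with an adjusted p of 0.164. Among lower genes, Nrn1, the neurite growth protein neuritin, had 8.88, 5.15 and 6.61 FPKM with TGFB1 and 15.6, 7.45 and 11.3 FPKM with vehicle (-0.63), and Thsd7a, a thrombospondin-repeat membrane protein, had 6.96, 5.31 and 3.46 FPKM with TGFB1 and 9.59, 7.93 and 6.17 FPKM with vehicle (-0.53). Slc6a6, the taurine transporter, Rbm15, an RNA-binding protein, Upf1, the helicase of nonsense-mediated decay, and Gpr137b, a lysosomal membrane protein, had log2 differences of -0.27, -0.37, -0.29 and -0.34. Tmem254b had 2.57, 2.04 and 0.216 FPKM with TGFB1 and 14.5, 12.6 and 10.8 FPKM with vehicle, but it belongs to a set of near-identical copies among which reads can be split, and its difference is uncertain.

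Short RNA genes, whose values rest on few fragments in a poly-A library, held most of the largest downward differences and few of the largest upward ones. Among the 32 genes lower in all 3 pairs with a fitted change of -1 or less, 13 were microRNA genes and 13 were small nucleolar RNA genes, and 4 were protein-coding. Among the 37 genes higher in all 3 pairs with a fitted change of 1 or more, 31 were protein-coding, 5 were microRNA genes and 1 was a small nucleolar RNA gene. The median standard error was 0.559 for 139 microRNA genes and 0.469 for 91 small nucleolar RNA genes, against 0.0799 for 11485 protein-coding genes. Mir212 was listed at 3.62, 14.5 and 5.32 FPKM with TGFB1 and at 0 in all 3 vehicle libraries, and Mir1932 had 7.199, 2.88 and 7.10 FPKM with TGFB1 and 1.91, 0 and 1.595 FPKM with vehicle (adjusted p = 0.164 and 0.0986). Mir212 met the expression filter through its TGFB1 libraries alone, so its groups could not overlap and its p is conditioned on that. Mir145a had 32.8, 31.4 and 31.99 FPKM with TGFB1 and 45.5, 52.5 and 46.7 FPKM with vehicle, without overlap (-0.57), and it fell by 1.07 in intact cultures. Snord95 had 17.5, 21.2 and 11.5 FPKM with TGFB1 and 47.1, 35.9 and 44.1 FPKM with vehicle, and Snord52 had 33.5, 30.3 and 17.8 FPKM with TGFB1 and 80.3, 63.7 and 57.8 FPKM with vehicle, both without overlap. These values count fragments on the gene of a short RNA, and give no level of a mature microRNA.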

How the data were processed

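RNA was measured by sequencing of poly-A selected libraries in 12 cultures, per the labels' protocols. The deposited file is a single gene-by-library table of FPKM made by the authors, and FPKM are fragments scaled to transcript length and library size, so counts, depth and isoforms are not in it. The submitters' processing notes name kallisto 0.46.1, DESeq2 1.40.1 and the mouse build mm9, and how each was used is not given in the sources used here. Values were analysed as log2(FPKM + 1), which compresses changes of low genes, for genes reaching 1 FPKM in 3 or more of the knockout libraries. A linear model was fitted with limma 3.58.1 in R 4.3.3 over all 12 libraries, with 4 group means and a block for the number within each genotype, 4 residual degrees of freedom, a variance trend and Benjamini-Hochberg adjustment over 12185 genes. The model was also run on simulated data, with independent noise and a single spread per gene over all 12 libraries. That setting does not mirror the unequal spread of the knockout pairs, so the run is no check of the p-values given here. The rule that defines this comparison pairs libraries by number, and the deviations of same-numbered libraries correlated with r of 0.627, 0.238 and 0.547 in knockout and 0.440, 0.480 and 0.423 in intact cultures. Named genes are a set of pathway and marker genes, the 8 largest intact changes in each direction, the 12 smallest p in each direction at 5 FPKM or more, and up to 4 members of each list by size of the knockout difference, where all 3 pairs had 1 direction, and exceptions are said where they stand. Some members of the lists are counted but are not reported by name here. The comparison, its members and the gene lists were chosen with earlier results of these data known. Promoter sequences are from RefSeq (GRCm38.p6), read with Python 3.11.15. The alternatives tried are block, pseudocount, filter, scaling, variance trend, gene type and each replicate left out.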

Additional observations from a re-analysis of the deposited data

Results flagged for a closer look

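Effects of TGFB1 that differ between knockout and receptor-intact cultures were tested by the interaction, knockout response minus intact response on the log2 scale (limma, adjusted over all genes tested), which passed for 3468 genes in all. It passed for 107 of the 155 genes named in the text that were tested, beside 28.5% of all genes. Of the 107, 65 had a higher response in knockout and 42 a lower one, and these are listed here by role with their interaction value. Some were named for the size of their intact or knockout change, which the interaction also uses, so this count is no separate result. A negative value can come from an intact rise that knockout cultures lack, and a positive one from an intact fall that they lack, so the knockout values in the text have to be read beside it. Among ligand, receptor and SMAD genes, the knockout response was lower by interaction values of -1.67 for Pmepa1, -1.15 for Skil, -1.09 for Smad7, -0.91 for Smurf1, -0.91 for Tgfb1, -0.83 for Ltbp4, -0.81 for Bmp1, -0.69 for Thbs1 and -0.65 for Itgav. Among ligand, receptor and SMAD genes, the knockout response was higher by interaction values of 3.31 for Tgfbr3, 3.19 for Bmp4, 0.70 for Lrrc32, 0.66 for Gdf15 and 0.53 for Tgfbr1. Among early TGFB-SMAD targets, the knockout response was lower by interaction values of -2.48 for Cdkn2b, -1.87 for Ccn2, -1.56 for Nox4, -1.54 for Bhlhe40 and -0.73 for Vegfa. Among early TGFB-SMAD targets, the knockout response was higher by an interaction value of 3.06 for Tgfbi. Among matrix and fibroblast marker genes, the knockout response was lower by interaction values of -2.63 for Col5a3 and -1.32 for Fn1. Among matrix and fibroblast marker genes, the knockout response was higher by interaction values of 2.87 for Lum, 2.12 for Col3a1 and 1.29 for Dcn. Among contractile and YAP-TEAD genes, the knockout response was lower by interaction values of -1.74 for Ankrd1, -1.13 for Fjx1, -1.11 for Nuak2, -0.89 for Tagln, -0.83 for Smtn and -0.24 for Flna. Among genes of the ERK, stress kinase, PI3K and NF-kB routes, the knockout response was lower by interaction values of -1.97 for Egr2, -1.49 for Csf1, -1.25 for Dusp6, -1.06 for Ptgs2 and -0.99 for Gadd45a. Among genes of the ERK, stress kinase, PI3K and NF-kB routes, the knockout response was higher by interaction values of 9.12 for Saa3, 6.80 for Lcn2, 5.93 for Cxcl5, 3.61 for Il33, 2.66 for Il6, 2.13 for Fos, 1.64 for Klf15, 1.27 for Egr1, 1.08 for Klf2, 0.92 for Sesn3 and 0.76 for Zfp36. Among niche genes and BMP-SMAD targets, the knockout response was higher by interaction values of 4.51 for Sfrp1, 4.12 for Rspo1, 3.69 for Pdgfra, 3.19 for Rspo3, 2.65 for Id2, 1.72 for Grem1 and 1.39 for Id1. Among interferon response, interferon receptor and antigen processing genes, the knockout response was higher by interaction values of 2.85 for Zbp1, 2.38 for Iigp1, 2.13 for Isg15, 2.01 for Ifit3, 1.95 for Usp18, 1.88 for Ifit1, 1.74 for Gbp2, 1.63 for Irf7, 1.04 for Psmb8, 0.85 for Tap1, 0.77 for Ifit2, 0.52 for Ifi35 and 0.49 for Ifnar2. In the same group, the knockout response was lower by an interaction value of -0.36 for Ifngr2. Among metabolic, adipogenic and cell cycle genes, the knockout response was lower by interaction values of -1.27 for Plin2, -0.58 for Aldh1l2 and -0.48 for Nupr1. Among metabolic, adipogenic and cell cycle genes, the knockout response was higher by interaction values of 3.11 for Lpl, 2.88 for Fabp4, 0.97 for Bnip3, 0.97 for Idi1, 0.87 for Ccnd1, 0.82 for Insig1, 0.64 for Hmgcs1 and 0.64 for Mki67. Among genes of other lists or of none, the knockout response was lower by interaction values of -5.26 for Odaph, -3.41 for Jag1, -3.32 for Hbegf, -3.32 for Tfpi2, -3.08 for Olfm2, -2.88 for Stmn4, -2.85 for Mmp9, -1.74 for Uchl1, -0.74 for Klf10, -0.49 for Slc6a6 and -0.35 for Rbm15. Among genes of other lists or of none, the knockout response was higher by interaction values of 6.67 for Ptn, 5.24 for Lgi2, 4.99 for Spon2, 4.94 for Ptx3, 4.73 for Igfbp5, 2.96 for Mir212, 2.85 for Septin4, 2.76 for Mir1932, 2.41 for Ifi27l2a, 1.67 for Etv1, 1.29 for Nrn1 and 1.09 for Tmem53. Among genes of other lists or of none, the knockout response was higher by interaction values of 0.74 for Bmyc, 0.72 for Krt19, 0.68 for Lyz2, 0.50 for Mir145a and 0.40 for Gpr137b. No group had enough libraries for a check of single libraries that stand apart.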

How the results depend on the processing

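No gene was called in knockout under the other settings tried, apart from 3 genes with a pseudocount of 0.1 (Egr1, Mir212 and Ifi27l2a) and 1 gene (Egr1) when only protein-coding genes, a setting chosen after seeing the data, were tested. The knockout count at an unadjusted p under 0.05 is 728 without the replicate block, which pairs libraries by number within a genotype, and the interaction count is then 2154, while 1857 and 3584 result when 1 block is shared over both genotypes. No gene was called in knockout with the block or without it, so there was no call that could turn its direction. The counts of lists beside which the setting without the block is given became smaller. Leaving out 1 replicate gave knockout counts between 752 and 1698, intact calls between 2112 and 4972, interaction calls between 707 and 3124, and 0 knockout calls throughout. The lowest of each came without replicate 1, and such fits have fewer libraries. The median knockout difference lay between 0.0101 and 0.0877 over intact falls, and between -0.0276 and 0.0278 over intact rises, when 1 replicate was left out. With every library rescaled to a common sum, these medians are -0.0282 and -0.0518, and Jak1 turns to -0.00602. The knockout differences of 11 named genes changed sign when 1 replicate was left out, and ranged over the leave-one-out fits between -0.131 and 0.174 for Acta2, between -0.433 and 0.0613 for Ccn2, between -0.632 and 0.0151 for Hbegf, between -0.369 and 0.161 for Jag1, between -0.900 and 0.188 for Odaph, between -0.123 and 0.239 for Olfm2, between -0.107 and 0.0561 for Pmepa1, between -0.0925 and 0.00968 for Ptx3, between -0.0467 and 0.0295 for Skil, between -0.164 and 0.118 for Tagln and between -0.0751 and 0.481 for Tfpi2. The cause of these shifts was not tested. The other named genes kept the sign of their knockout difference under every setting. With FPKM alone, the precision of low genes cannot be set apart from their spread, and short RNA genes had the widest errors.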

Other observations

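A few other genes were chosen after their values were seen. Ifi27l2a, an interferon-inducible membrane protein of the same family as Ifi27 that is on no list, had 0.543, 4.86 and 16.4 FPKM with TGFB1 and 0, 0.483 and 1.72 FPKM with vehicle in knockout, higher in all 3 pairs (1.76, adjusted p = 0.219, limma). Mx1, an antiviral GTPase on the interferon list that stayed below the expression filter, had 0.371, 0.333 and 0.301 FPKM with TGFB1 and 0.218, 0.468 and 0.491 FPKM with vehicle. Msln, the mesothelial marker mesothelin, had 1.505, 0.0386 and 0 FPKM with TGFB1 and 5.52, 0.0560 and 0.255 FPKM with vehicle, and the keratin gene Krt18 had 9.47, 0.299 and 0.225 FPKM with TGFB1 and 21.8, 0.522 and 0.440 FPKM with vehicle. Both were highest in the replicate 1 libraries, as Krt8 was.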
